A study of Mus musculus with 4 samples.

Results

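The insulin-like growth factor (IGF) system was examined in the RNA-seq data through 10 genes. These were the ligand gene *Igf1*, the receptor genes *Igf1r* and *Insr*, and the 7 binding protein genes *Igfbp1* to *Igfbp7*. They were taken by gene symbol from the 52636 Ensembl genes on which reads had been counted. The cells were tdTomato+ cells sorted by FACS from embryonic mouse kidneys, harvested 48 h after tamoxifen was first given. Controls were *Eya1*CreER with the tdTomato reporter. *Eya1*cKO embryos were *Eya1*CreER and tdTomato with floxed *Eya1* (fl/fl), so that CreER at *Eya1* and tamoxifen were common to both groups. Mice were kept on a mixed C57BL/6J and 129/Sv background, and all kidneys were taken at E12.5 to E12.75. According to the labels, 6 kidneys of each genotype came from 4 females, the study's methods give other numbers of kidneys and females, and cell suspensions were combined before sorting. Each genotype had 2 libraries, each from its own 5000 sorted cells, and P values therefore measure only the spread between these libraries, which may be technical. CreER is made wherever the *Eya1* locus is active, so tdTomato marks that lineage and not a single cell type.

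IGF1 and IGF2 are secreted growth factors that act through the tyrosine kinase receptor IGF1R and, in part, through the insulin receptor. The binding proteins IGFBP1 to IGFBP6 hold the ligands with high affinity and can keep them from the receptor, release them when cleaved, or act without them. IGFBP7 binds IGFs weakly and is known as a matrix-associated protein of blood vessels. In embryos IGF2 is the more abundant ligand, and the pathway is known for its part in the growth of fetal organs.

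Of the 10 genes, *Igfbp7* and *Igf1* rose in *Eya1*cKO, by 5.29-fold and 3.59-fold. The receptor genes *Igf1r* and *Insr* lay at similar levels in both genotypes, with overlapping libraries. *Igfbp4* and *Igfbp5*, the members with the most RNA per length in control cells, differed by 1.17-fold and 0.909-fold between the genotypes, and neither passed the test. All 10 genes passed edgeR's filter on low counts and were tested among 19041 genes, with Benjamini-Hochberg adjustment over all of them at 0.05. The 2 genes called are 20% of the members, where 9.56% of all genes tested were called, 5.15% as higher and 4.41% as lower in *Eya1*cKO. The median log2 fold change (log2FC, always *Eya1*cKO over control, given with its standard error as SE) was 0.21 over the members and 0.016 over all genes tested.

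The windows before the start sites of these genes were read from RefSeq promoter sequences on GRCm38, in which 9 of the 10 members had at least 1 window and *Insr* had none. The 250 bases before the start site are shown for *Igfbp7* (chr5:77408046-77408295, minus strand) and *Igf1* (chr10:87860861-87861110, plus strand), because these 2 genes passed the test. The same window of *Igfbp4* (chr11:99040994-99041243, plus strand) is shown as that of the member with the highest control level per length of exon, which did not pass. Each is written 5′ to 3′ on the gene's own strand, and capitals mark CG dinucleotides.
Igfbp7: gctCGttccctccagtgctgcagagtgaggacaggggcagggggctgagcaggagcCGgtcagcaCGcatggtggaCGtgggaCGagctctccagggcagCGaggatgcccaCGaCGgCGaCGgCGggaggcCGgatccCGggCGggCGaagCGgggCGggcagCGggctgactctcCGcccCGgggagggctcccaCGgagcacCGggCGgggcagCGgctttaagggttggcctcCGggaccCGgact
Igf1: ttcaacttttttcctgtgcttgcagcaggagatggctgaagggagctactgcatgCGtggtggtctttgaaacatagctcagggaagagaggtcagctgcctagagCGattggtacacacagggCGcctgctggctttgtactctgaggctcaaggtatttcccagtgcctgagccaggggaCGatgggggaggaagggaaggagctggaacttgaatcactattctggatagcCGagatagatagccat
Igfbp4: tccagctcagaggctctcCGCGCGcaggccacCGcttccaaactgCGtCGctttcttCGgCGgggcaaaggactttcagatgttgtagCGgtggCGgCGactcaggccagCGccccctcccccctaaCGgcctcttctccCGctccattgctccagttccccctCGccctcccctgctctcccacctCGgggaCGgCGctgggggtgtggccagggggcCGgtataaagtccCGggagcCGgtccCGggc

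The genes that rose had unlike windows. That of *Igfbp7* held 26 CG dinucleotides and was 74% G and C, and 90.4% of 32817 promoter windows of this length held fewer CG. That of *Igf1* held 5 CG and was 52.8% G and C, close to the medians of 6 CG and 52.4% over all windows. The *Igf1* start site of RefSeq lay 218 bases from the nearest start in the GENCODE annotation, against 4 bases for *Igfbp7*. Among the other members, *Igf1r* had the most CG in its window, with 42, and *Igfbp1* had 5. The RefSeq start sites of *Igf1r* and *Igfbp6* lay 570 and 176 bases from the nearest GENCODE start, so their windows are less surely placed.

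Short motifs were searched for on both strands of these windows, and no match overlapped another. The forkhead (FOXO) core GTAAACA, the left part of the REST site, TTCAGCACC, and the MEF3 site TCAGGTTTC occurred in no member's window, and in 3.16%, 0.302% and 0.387% of all windows. The right part of the REST site, GGACAG, is in 18.7% of all windows and was present in those of *Igfbp7*, *Igfbp1* and *Igf1r*. The core TGATAC of sites bound by Six2 and its relatives was present in the window of *Igfbp3* only, and in 4.64% of all windows. The window of *Igfbp1*, a gene known to respond to insulin, held the core of the insulin response element, CAAAACA, which began 108 bases before the start site. That core is in 5.56% of all windows. The TATA box TATAAA, in 12.4% of all windows, began 28 bases before the start site of *Igfbp4* and was also found on the opposite strand in the window of *Igfbp6*. These matches are letters in a window and not measured binding.

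Reads counted on genes ran from 17457452 to 37999342 per library, with the *Eya1*cKO libraries the shallower, and 3 counts corresponded to 0.0801 to 0.171 CPM (counts scaled by edgeR to TMM-adjusted library size). Such limits cover counting error only, since PCR copies are not independent molecules. *Eya1* was at 189 and 171 CPM in the control libraries and at 16.7 and 12.5 CPM in *Eya1*cKO, a log2FC of -3.60 (SE 0.18, edgeR adjusted *P* = 1.9e-04). HTSeq-count assigned to no feature, a class that can hold intronic reads, 13.9% and 12.9% of the recorded reads of the control libraries and 22.7% and 20.9% of those of *Eya1*cKO. Reads recorded as not aligned were 6.32% and 6.69% in the controls against 12.9% and 12.7% in *Eya1*cKO, and the part of these differences in the results was not tested.

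The sorted cells also differed in markers of other cell types, and the part of these differences in the results on IGF genes was not tested. In bulk samples, fewer cells of a type and less RNA per cell cannot be told apart. All 10 nephron progenitor markers were lower in *Eya1*cKO, with a summed level of 2047 to 2065 CPM in the controls and 469 to 489 in *Eya1*cKO. Of 8 podocyte markers 7 were higher (summed level 888 to 908 against 2806 to 2869 CPM), as were 8 of 8 endothelial markers (618 to 629 against 1068 to 1127 CPM) and 6 of 9 renal stroma markers (1934 to 1935 against 3758 to 3795 CPM). Of 8 adrenal cortex markers 7 could be tested and all 7 were higher (12.2 to 19.1 against 693 to 729 CPM), *Cyp17a1* having at most 3 reads in any library. Of 8 sympathoadrenal markers 7 were higher (5.56 to 9.61 against 535 to 569 CPM). Ureteric epithelium markers were lower for 2 of 8 (223 to 232 against 117 to 140.5 CPM), and skeletal muscle markers for 1 of the 4 tested of 8 (128 to 145 against 66.8 to 88.2 CPM, with *Myf5* at 0 throughout). Of 8 hepatocyte markers 4 could be tested and 1 was higher (5.53 to 5.77 against 23.0 to 31.6 CPM), with *Ttr* at 0 throughout and *Alb* at 0, 7, 26 and 0 reads. None of the 4 tested of 10 erythroid and macrophage markers passed the test (99.0 to 100.3 against 91.8 to 92.9 CPM), and the globin genes *Hba-a1*, *Hba-a2* and *Hbb-bs*, which have close copies between which reads can be split or dropped, were at 0.

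**Figure D1:**
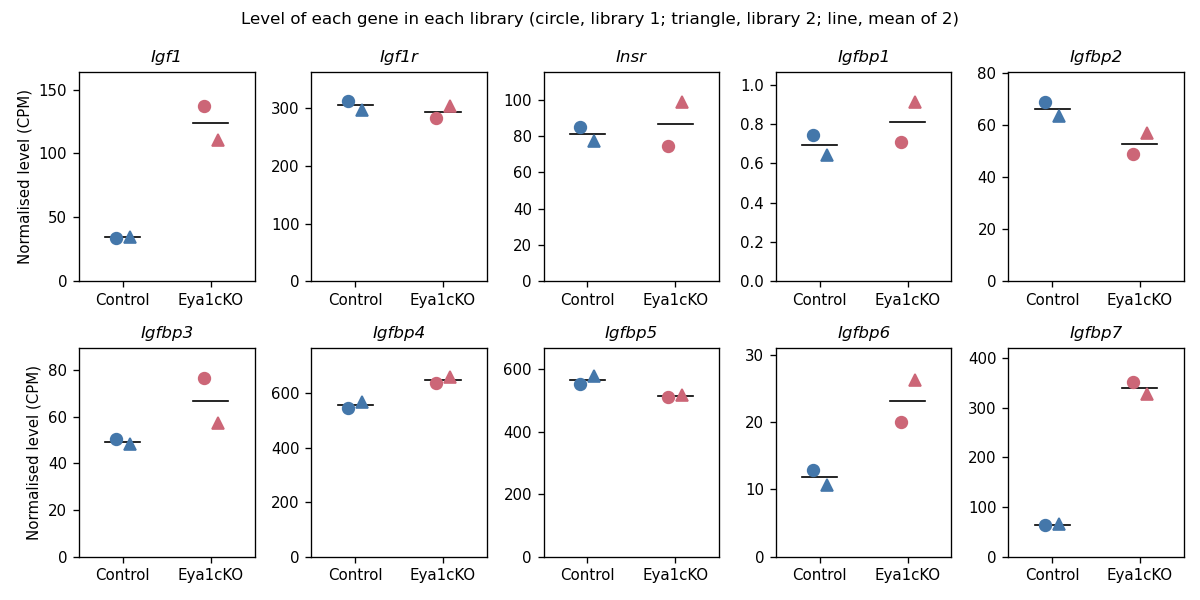
Level of each of the 10 genes in each library, in CPM of the TMM-adjusted library. Circles are the first and triangles the second library of each genotype, and lines are means of the 2 libraries. *Igfbp7* lay at 63.4 and 65.0 CPM in the controls and at 352 and 328 CPM in *Eya1*cKO, whereas the libraries of *Igf1r*, *Insr* and *Igfbp1* overlapped.

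Among the ligands, *Igf1* encodes the growth factor through which growth hormone acts after birth, and mesenchymal cells of many organs express it. The gene (ENSMUSG00000020053) lies on chromosome 10 from 87858265 to 87937042 of GRCm38 and was counted 1193 and 1304 times in control 1 and 2, and 3096 and 1936 times in *Eya1*cKO 1 and 2. These counts were 34.2 and 34.8 CPM in the controls against 137 and 110 CPM in *Eya1*cKO. Both *Eya1*cKO libraries lay above both controls, and they differed more from each other than the controls did. The log2FC was 1.85 (SE 0.16, edgeR adjusted *P* = 0.0016), and 13.9% of all genes tested changed by more in either direction. It passed the threshold under the 8 alternatives run on all 4 libraries, but not when control 1 or control 2 was left out, with log2FC values of 1.82 and 1.85 and adjusted *P* values of 0.13 and 0.14 in edgeR. Markers of renal stroma (median log2FC 0.65), endothelium (0.81), podocytes (2.18), adrenal cortex (6.35) and sympathoadrenal cells (6.78) moved with *Igf1*, and their part in its rise was not tested. With a control left out, the remaining control was assumed to vary like the *Eya1*cKO libraries, and 23 of all genes passed. With an *Eya1*cKO library left out, the spread came from the controls alone, which lay closer together, and 33.5% (without *Eya1*cKO 1) or 35.3% (without *Eya1*cKO 2) of all genes passed, so that a pass at these settings is no support for a gene.

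*Igf2*, the fetal ligand gene, was measured beside it and was far more abundant, at 2674 and 2580 CPM in the controls against 3109 and 3174 CPM in *Eya1*cKO. Its log2FC was 0.26 (SE 0.044, edgeR adjusted *P* = 0.016), while other annotated genes cover 64.6% of its exons. Without control 1 or control 2 its adjusted *P* was 0.28 or 0.41 in edgeR. Per length of exon, *Igf1* made up 0.733% and 0.774% of the summed level of both ligand genes in the controls and 2.48% and 1.97% in *Eya1*cKO. Almost all of the IGF ligand mRNA was thus *Igf2* in every library. *Ins1* and *Ins2*, the insulin genes, had 0 reads in all 4 libraries.

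In the fit on all 4 libraries the receptor genes gave the least change among the well-counted members. *Igf1r* (ENSMUSG00000005533, chromosome 7 from 67952827 to 68233668) encodes the receptor that carries most of the IGF signal. It was at 313 and 297 CPM in the controls against 282 and 304 CPM in *Eya1*cKO, so that the genotypes overlapped. The log2FC was -0.060, with a 95% interval from -0.25 to 0.13, and it did not pass the test (edgeR adjusted *P* = 0.67). *Insr* (ENSMUSG00000005534, chromosome 8 from 3122061 to 3279617), the insulin receptor gene, was at 84.9 and 77.4 CPM in the controls against 74.3 and 98.9 CPM in *Eya1*cKO. The *Eya1*cKO libraries of *Insr* fell on either side of both controls, and its log2FC of 0.078 had a 95% interval from -0.31 to 0.47 (edgeR adjusted *P* = 0.80). The log2FC of *Insr* was -0.14 without *Eya1*cKO 2 and -0.0030 without control 2, but 0.28 without *Eya1*cKO 1 and 0.12 without control 1. Per length of exon, the level of *Igf1r* was 3.02 and 3.14 times that of *Insr* in the controls and 3.11 and 2.52 times in *Eya1*cKO.

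Receptors outside the 10 genes moved unequally. *Insrr* encodes a relative of the insulin receptor that does not bind insulin and responds to alkaline pH. It had 231 and 303 reads in the controls and 899 and 689 in *Eya1*cKO, a log2FC of 2.42 (SE 0.27, edgeR adjusted *P* = 0.0037), and its adjusted *P* was 0.24 without control 1 and 0.23 without control 2. *Igf2r*, the receptor that clears IGF2 to lysosomes, went from 456 and 451 CPM to 564 and 557 CPM, a log2FC of 0.30 (SE 0.063, edgeR adjusted *P* = 0.030). It passed under 6 of the 8 alternatives run on all libraries, and its adjusted *P* was 0.57 without control 1 and 0.62 without control 2 in edgeR. *Igfals*, the gene of the acid-labile subunit that carries IGF complexes in blood, had 9 and 7 reads in the controls and 0 and 152 in *Eya1*cKO, so its reads came mostly from 1 library and the filter removed it. *Igfbpl1* had 31 and 4 reads in the controls and 22 and 0 in *Eya1*cKO, and it did not pass (edgeR adjusted *P* = 0.95).

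Among the binding protein genes, *Igfbp7* (ENSMUSG00000036256, chromosome 5 from 77349240 to 77408041, minus strand) showed the largest change. Control 1 and 2 gave 2214 and 2435 of its reads, and *Eya1*cKO 1 and 2 gave 7944 and 5761, or 63.4 and 65.0 CPM against 352 and 328 CPM. The libraries of a genotype lay close together and the genotypes were far apart. The log2FC was 2.41 (SE 0.096, 95% interval 2.18 to 2.63, edgeR adjusted *P* = 7.8e-05), the 9th smallest *P* of the 19041 genes tested. It passed under the 8 alternatives run on all 4 libraries, and leaving out any single library gave log2FC values of 2.34 to 2.44. Markers that moved with it had a median log2FC of 0.81 for endothelium, 0.65 for renal stroma, 2.18 for podocytes, 6.35 for adrenal cortex and 6.78 for sympathoadrenal cells, and their part in the result was not tested. Exons of *Igfbp7* share 7.03% of their length with *Polr2b* on the opposite strand.

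*Igfbp4* (ENSMUSG00000017493, chromosome 11 from 99041244 to 99054392) encodes a binding protein that holds IGF away from its receptor until it is cleaved by the protease PAPP-A. It was at 545 and 569 CPM in the controls against 640 and 662 CPM in *Eya1*cKO. The 2 genotypes did not overlap, but the difference was small and did not pass (log2FC 0.22, SE 0.063, edgeR adjusted *P* = 0.075). It passed with library totals alone (edgeR adjusted *P* = 0.045) and with DESeq2's Wald test (0.012). With the spread of the controls alone, its adjusted *P* was 0.0010 without *Eya1*cKO 1 and 0.0080 without *Eya1*cKO 2 in edgeR, where 33.5% and 35.3% of all genes passed.

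*Igfbp5* (ENSMUSG00000026185, chromosome 1 from 72857932 to 72874884, minus strand) encodes a binding protein that also attaches to extracellular matrix. It was at 554 and 578 CPM in the controls against 511 and 518 CPM in *Eya1*cKO. Both *Eya1*cKO libraries were below both controls, with a log2FC of -0.14 that did not pass (SE 0.064, edgeR adjusted *P* = 0.21). With the spread of the controls alone, its adjusted *P* was 0.049 without *Eya1*cKO 1 and 0.021 without *Eya1*cKO 2 in edgeR, settings at which 33.5% and 35.3% of all genes passed.

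*Igfbp2* (ENSMUSG00000039323, chromosome 1 from 72824503 to 72852474) encodes a binding protein abundant in fetal tissues. It was at 68.9 and 63.8 CPM in the controls against 48.9 and 56.9 CPM in *Eya1*cKO, again without overlap. The log2FC of -0.34 (SE 0.16) did not pass (edgeR adjusted *P* = 0.21), except when *Eya1*cKO 2 was left out and the controls alone gave the spread (-0.45, adjusted *P* = 0.014, with 35.3% of all genes passing). *Igfbp2* and *Igfbp5* are neighbours on chromosome 1 that end 5457 bases apart and run towards each other. Per length of exon, the level of *Igfbp5* was 2.62 times that of *Igfbp2* in the controls and 2.99 times in *Eya1*cKO.

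*Igfbp3* (ENSMUSG00000020427, chromosome 11 from 7206086 to 7213923, minus strand) encodes the main IGF carrier of adult blood. It was at 50.3 and 48.3 CPM in the controls against 76.6 and 57.3 CPM in *Eya1*cKO. Both *Eya1*cKO libraries were above the controls, but they stood further apart from each other than *Eya1*cKO 2 stood from the controls. The log2FC was 0.46 (SE 0.18, edgeR adjusted *P* = 0.15), and among the alternatives run it passed only without *Eya1*cKO 2 (0.62, adjusted *P* = 9.5e-04), where the controls alone gave the spread and 35.3% of all genes passed. Without *Eya1*cKO 1 the log2FC was 0.21.

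*Igfbp6* (ENSMUSG00000023046, chromosome 15 from 102144362 to 102149511) encodes a binding protein that prefers IGF2 to IGF1. It had 453 and 402 reads in the controls and 452 and 461 in *Eya1*cKO, a mean of 11.9 ± 1.58 CPM (SD, n = 2) against 23.1 ± 4.44 CPM. On the CPM scale the genotypes did not overlap, and the log2FC of 0.95 had a wide interval (95% interval 0.21 to 1.68, edgeR adjusted *P* = 0.11). With the spread of the controls alone, its adjusted *P* was 0.0012 without *Eya1*cKO 1 and 0.026 without *Eya1*cKO 2 in edgeR, where 33.5% and 35.3% of all genes passed.

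*Igfbp1* (ENSMUSG00000020429, chromosome 11 from 7197782 to 7202546), known as a liver gene that insulin turns down, was the least expressed member. It had 26 and 24 reads in the controls and 16 and 16 in *Eya1*cKO, and its CPM values overlapped (0.745 and 0.641 against 0.708 and 0.912). At this depth a change could not be resolved, since the 95% interval of its log2FC of 0.21 ran from -1.54 to 1.96 (edgeR adjusted *P* = 0.89). *Igfbp1* and *Igfbp3* are neighbours on chromosome 11 that end 3539 bases apart. Per length of exon, *Igfbp3* was at 34.7 times the level of *Igfbp1* in the controls and 40.3 times in *Eya1*cKO.

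**Figure D2:**
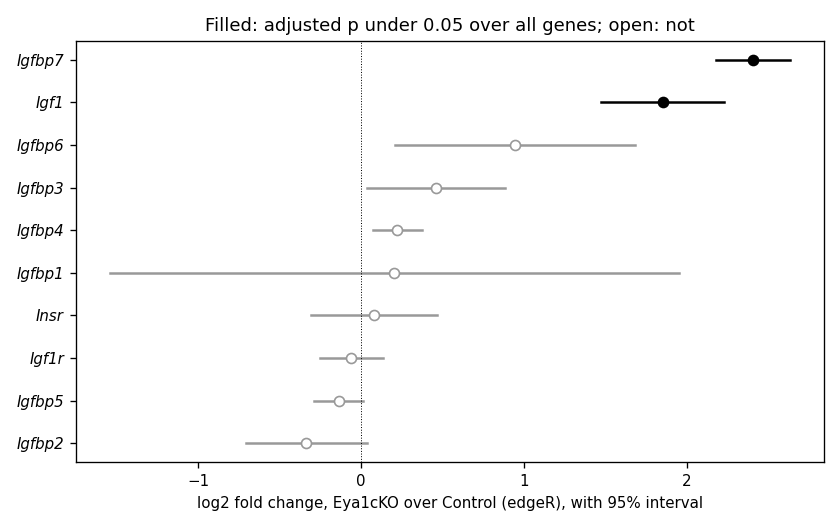
Log2FC of each of the 10 genes in edgeR's quasi-likelihood test, with its 95% interval. Filled points passed the threshold of 0.05. *Igfbp7* (2.41) and *Igf1* (1.85) are filled, and the interval of *Igfbp1* is the widest, from -1.54 to 1.96.

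For 7 of the 10 members the libraries of the genotypes did not overlap, where 55.3% of all genes tested did not. In 5 members both *Eya1*cKO libraries lay above both controls and in 2 below them, against 25.3% and 30.0% of all genes.

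The members were ordered by level per length of exon (CPM per kb). In the controls *Igfbp4* stood first with 126 ± 3.74 CPM per kb (SD, n = 2), followed by *Igfbp5* with 94.2 ± 2.83, *Igfbp7* with 53.1 ± 0.953 and *Igfbp2* with 35.9 ± 1.96. *Igf1r* with 18.2 ± 0.677, *Igfbp3* with 15.8 ± 0.452, *Igfbp6* with 10.7 ± 1.42, *Insr* with 5.90 ± 0.382, *Igf1* with 3.48 ± 0.0473 and *Igfbp1* with 0.454 ± 0.0480 CPM per kb came after them. No neighbours in this order overlapped between the control libraries. In *Eya1*cKO *Igfbp7* stood first with 281 ± 13.5 CPM per kb, ahead of *Igfbp4* with 147 ± 3.52 and *Igfbp5* with 85.6 ± 0.748. *Igf1*, with 12.5 ± 1.90 CPM per kb, stood above *Insr* with 6.30 ± 1.27. *Igf1r*, with 17.5 ± 0.924 CPM per kb, stood below *Igfbp3* with 21.4 ± 4.35 and *Igfbp6* with 20.8 ± 3.99, both of which it had exceeded in the controls. In *Eya1*cKO *Igfbp6* overlapped with both of its neighbours in the order, *Igfbp3* and *Igf1r*, and no other neighbours overlapped. Among all genes with an exonic length, *Igfbp7* ranked 791 and 777 by level per length in the control libraries and 53 and 64 in *Eya1*cKO.

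**Figure D3:**
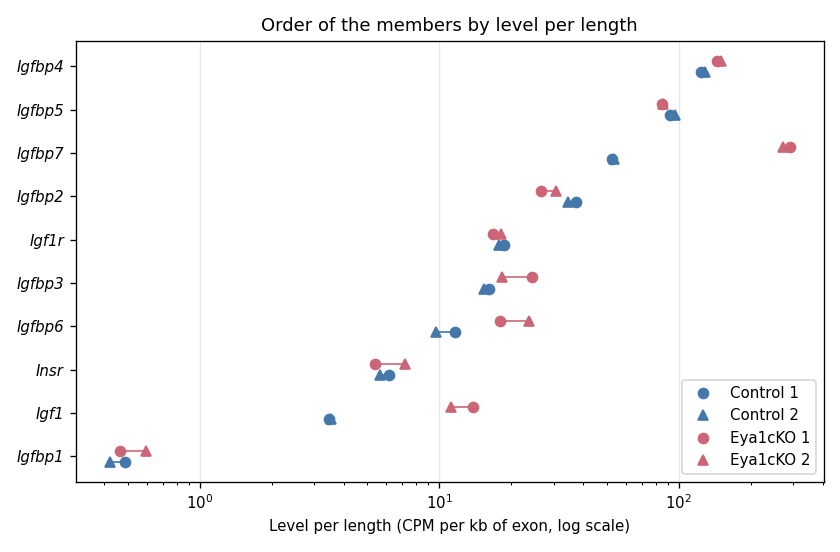
Level per length of exon of each gene in each library (CPM per kb, log scale), ordered by the control mean. Circles and triangles are the first and second library of a genotype, joined by a line. *Igfbp7* moved from 53.1 to 281 CPM per kb and *Igf1* from 3.48 to 12.5, while the points of *Igf1r* (18.2 and 17.5) nearly coincide.

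The make-up of IGFBP mRNA followed from these levels. Of the summed level per length of *Igfbp1* to *Igfbp7*, *Igfbp7* took 15.7% and 15.9% in the controls and 49.3% and 46.7% in *Eya1*cKO. *Igfbp4* took 37.0% and 38.02% in the controls and 24.5% and 25.8% in *Eya1*cKO, and *Igfbp5* 27.6% and 28.4% against 14.4% and 14.8%. The summed level was 334 and 339 CPM per kb in the controls and 590.2 and 581 in *Eya1*cKO. Without *Igfbp7* it was 281 and 285 CPM per kb against 299 and 309, so that most of the difference in the sum was *Igfbp7*. Shares of raw counts, with no scaling by length, gave *Igfbp7* 4.89% and 4.87% in the controls and 21.3% and 19.9% in *Eya1*cKO. By counts *Igfbp4* took 42.1% and 42.6% in the controls against 38.8% and 40.1% in *Eya1*cKO. *Igfbp5* took 42.7% and 43.3% against 31.0% and 31.4%. Both stayed above *Igfbp7* in *Eya1*cKO by counts, so its first place there depends on the scaling by length. On this scale *Igfbp3* took 3.88% and 3.62% in the controls against 4.65% and 3.48% in *Eya1*cKO, which overlap, where per length it took 4.82% and 4.56% against 4.15% and 3.15%. These shares are values with no test.

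**Figure D4:**
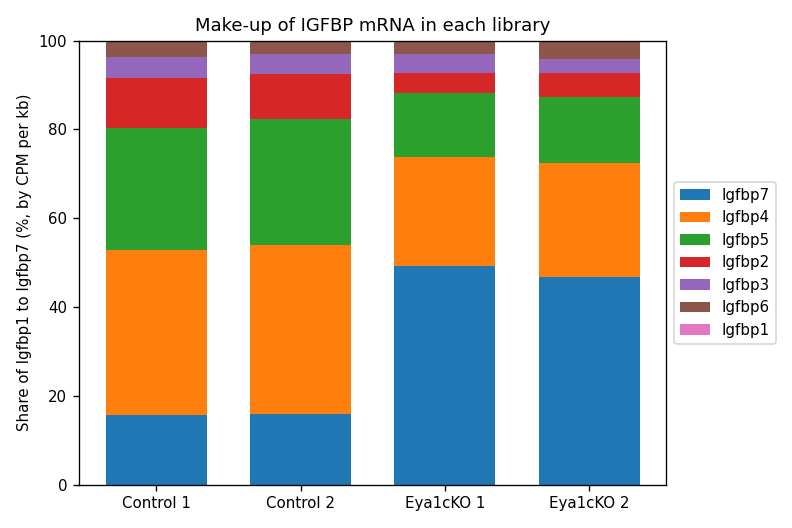
Share of each binding protein gene in the summed level per length of *Igfbp1* to *Igfbp7*, in percent, with 1 bar for each library. *Igfbp7* filled 15.7% and 15.9% of the control bars and 49.3% and 46.7% of the *Eya1*cKO bars. *Igfbp1*, at 0.0787% to 0.146%, is too small to be seen.

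The rest of the pathway was taken as 6 lists of 67 genes, of which 59 could be tested. Of these 17 (28.8%) passed the threshold, 11 higher and 6 lower in *Eya1*cKO, where 9.56% of all genes tested passed, and the median log2FC of the 59 was 0.021. With a library left out 61 genes could be tested, of which 0 passed in edgeR without control 1 or without control 2 (11 and 12 at an unadjusted *P* under 0.05), when 0.109% and 0.108% of all genes passed. It was 32 without *Eya1*cKO 1 and 34 without *Eya1*cKO 2, when 33.5% and 35.3% of all genes passed. The count was 9 of 64 without the low-count filter (3.38% of all genes), 9 of 59 with the legacy method of edgeR (5.76%) and 6 of 59 with the replicate number as a block (3.26%). Among genes with at least 10 counts in every library, 17 of 55 (30.9%) passed, where 15.5% of all such genes did.

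Among 9 proteases that cleave binding proteins and inhibitors of these proteases, 7 could be tested, 3 were higher and 1 was lower. *Pappa*, the gene of PAPP-A, which cleaves IGFBP4 and IGFBP5, rose from 73.1 and 73.2 CPM to 140 and 133 CPM (log2FC 0.90, edgeR adjusted *P* = 0.0058). *Stc1* encodes stanniocalcin-1, an inhibitor of PAPP-A. It had 886 and 990 reads in the controls and 54 and 118 in *Eya1*cKO, a log2FC of -2.59 (edgeR adjusted *P* = 0.015), which lay between -3.45 and -1.96 with a library left out. It passed under 6 of the 8 alternatives run on all libraries. *Htra3*, a secreted serine protease gene, rose by a log2FC of 1.72 (past the threshold under 7 of the 8) and *Adam12*, a metalloprotease gene, by 0.88. The latter was just past the threshold (edgeR adjusted *P* = 0.048) and passed under 4 of the 8 alternatives run on all libraries.

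Of 9 other genes whose proteins carry an IGFBP-type domain, 8 could be tested and 2 passed, both higher. *Ccn1*, a matrix-associated signalling protein gene, went from 694 and 713 CPM to 1017 and 989 CPM, a log2FC of 0.51 (edgeR adjusted *P* = 0.0035). *Crim1*, a membrane protein gene, had a log2FC of 0.70 (edgeR adjusted *P* = 0.027) and passed under 5 of the 8 alternatives run on all libraries.

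Of 13 receptor substrates and adaptors 12 could be tested, 2 were higher and 2 lower. *Irs1* and *Irs2* encode the docking proteins that IGF1R and the insulin receptor phosphorylate, and they moved in opposite directions. *Irs1* went from 29.8 and 30.6 CPM to 50.8 and 52.1 CPM (log2FC 0.77, edgeR adjusted *P* = 0.041), while a gene on the opposite strand covers 30.9% of its exons. *Irs2* went from 245 and 225 CPM to 172 and 177 CPM (log2FC -0.43, edgeR adjusted *P* = 0.034). Both passed under 4 of the 8 alternatives run on all libraries. *Shc1*, an adaptor towards the RAS pathway, had a log2FC of 0.49 (edgeR adjusted *P* = 0.037, and past the threshold under 4 of the 8), and *Grb10*, an imprinted gene whose protein restrains both receptors, one of -0.30 (edgeR adjusted *P* = 0.014). *Grb10* was abundant, at 1656 and 1631 CPM in the controls against 1312 and 1354 CPM in *Eya1*cKO.

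Of 26 genes of the PI3K, AKT, FOXO and mTOR chain downstream, 25 could be tested and *Pik3r1* alone passed. It encodes a regulatory subunit of PI3K and went from 131 and 130.5 CPM to 222 and 174 CPM (log2FC 0.61, edgeR adjusted *P* = 0.033), and it passed under 4 of the 8 alternatives run on all libraries. The median over the 25 genes was -0.060 and the log2FC values ran from -0.38 to 0.99. The 3 IGF2 mRNA-binding protein genes, whose products bind *Igf2* and other transcripts, were all lower. *Igf2bp1* went from 301 and 301 CPM to 165 and 180 CPM (log2FC -0.81, edgeR adjusted *P* = 0.0034), and *Igf2bp2* and *Igf2bp3* had log2FC values of -0.51 and -0.45. Of the 8 alternatives run on all libraries, *Igf2bp1* passed under 8, *Igf2bp2* under 7 and *Igf2bp3* under 4.

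**Figure D5:**
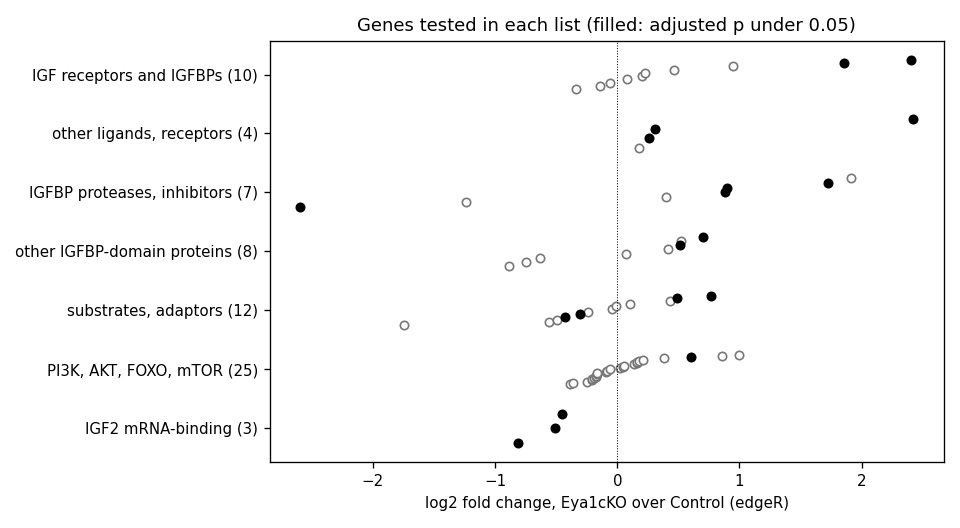
Log2FC (edgeR) of every gene tested in the 10 members and the 6 other lists, with the number of genes tested in brackets. Filled points passed the threshold of 0.05. In the PI3K list 1 of 25 points is filled, and among the IGF2 mRNA-binding genes 3 of 3 are filled and lie below 0.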

How the data were processed

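The deposited values were read counts per gene for 4 libraries. Per the paper's methods, the authors mapped single-end reads to mm10 with HISAT2 and counted them on Ensembl genes with HTSeq-count. Libraries were strand-specific, but tool versions and the strand setting of the counting are not given in the sources used here, so it is not known whether antisense reads were kept apart. Reads recorded as on no feature, ambiguous, unaligned or not uniquely aligned were together 31.8% to 46.1% of each library and were left out. A symbol was found for 52403 of 52636 identifiers. Positions and exon lengths came from GENCODE M21 (GRCm38, the build of mm10, and not the authors' annotation release), and symbols of CCN genes were matched through RefSeq synonyms. The members, gene lists and tests were chosen with earlier results of these data known. Genes named were all members, other ligand and receptor genes, *Eya1*, and from each other pathway list up to 3 of those past the threshold, by smallest *P*, in each direction. Marker genes at or near 0 were also named, after their values were seen.

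Differential expression was computed from the counts with edgeR 4.0.16 (R 4.3.3): filterByExpr (minimum count 10), TMM, glmQLFit and glmQLFTest (legacy = FALSE), Benjamini-Hochberg adjustment at 0.05. SE was the size of log2FC divided by the root of the F statistic. Alternatives were other scalings, filters and tests (DESeq2 1.42.0), a replicate block, each library left out, and, chosen after seeing the data, control counts thinned to *Eya1*cKO depth. Replicates of a genotype differed by more than sampling noise (chi-square per degree of freedom 9.70 in the controls and 49.8 in *Eya1*cKO).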

Additional observations from a re-analysis of the deposited data

Results flagged for a closer look

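Reads that HTSeq-count assigned to no feature, a class that can hold intronic reads and that no comparison used, made up 22.7% and 20.9% of all reads recorded in the *Eya1*cKO libraries, above the 13.9% and 12.9% of the control libraries.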

How the results depend on the processing

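Of the 10 members, 9 kept their direction under all alternatives run, and *Insr* did not, with -0.0030 without control 2 and -0.14 without *Eya1*cKO 2 in a range of -0.14 to 0.28 with a library left out. Between 2 and 3 members passed under the 8 alternatives on all 4 libraries, where 3.26% to 15.5% of all genes passed. With a library left out 1 to 7 members passed, where 0.108% to 35.3% of all genes did. The 7 came without *Eya1*cKO 2, the setting with 35.3%, so this count is no support for single members. *Igfbpl1*, with few reads, turned to -0.017 with DESeq2, -0.014 with the legacy method, -0.011 with the replicate block and -0.032 with thinned controls, and lay between -6.87 and 2.29 with a library left out. Of the other pathway genes, 9 passed without the low-count filter, 9 with the legacy method, 6 with the replicate block and 0 to 34 with a library left out, against 17. Of all genes 1055, 1096 and 621 passed under these 3 settings, 3102 with DESeq2 and 23 to 7925 with a library left out, against 1820. The causes were not tested. The mean share of *Igfbp3* in IGFBP counts was higher by 0.31 percentage points in *Eya1*cKO without length scaling, through *Eya1*cKO 1 alone. From control to *Eya1*cKO the mean share of *Igfbp4* changed by -12.3 percentage points per length and by -2.89 in counts. That of *Igfbp7* changed by 32.2 percentage points per length and by 15.7 in counts. The libraries share only a number (the deviations of same-numbered libraries correlated at 0.0090 across genes), so the replicate block is not a paired design. Low counts of *Igfbp1* and *Igfals* limit what their values can show.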
